A study of Thermothelomyces thermophilus with 18 samples.

Results

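A set of 65 genes of Myceliophthora thermophila had lower transcript levels in the deletion strain ΔMttrc-1 than in the wild type MtWT on starch, while their levels in the strains stayed within fixed bounds of each other on Avicel. The members were chosen from these measured values among the 9109 genes of the table. Read counts were divided by a median-of-ratios size factor for each library, which gives the normalised counts used below, and 1 was added to each group mean before ratios were taken. A gene was a member when its mean in MtWT on starch was at least 50, its ΔMttrc-1/MtWT ratio was below 0.5 on starch, and that ratio lay between 0.6 and 1.7 at both times on Avicel. The starch genes Mycth_72393 (glaA) and Mycth_2303089 were left out by name. All deletion comparisons therefore served to choose the members, and the values from them are given as a description with no test.

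Transcripts were sequenced from mycelium of ΔMttrc-1, which carries a CRISPR-Cas9 deletion of the gene Mycth_90344 for the zinc finger transcription factor MtTRC-1, and of MtWT, strain ATCC 42464. All cultures shared a preculture of 16 h in 2% glucose at 45 °C, after which washed mycelium was moved to 2% starch for 4 h or, for 4 h or 6 h, to 2% Avicel, which is microcrystalline cellulose. The 6 groups were ΔMttrc-1 and MtWT on starch at 4 h, on Avicel at 4 h and on Avicel at 6 h, with 3 libraries each that differed by more than sampling noise. Mycth_90344 is not analysed here and cannot check the strains, whose names come from the labels, and each strain is a single genotype with no complemented strain among these libraries. The carbon sources could be checked: cbh-1 (Mycth_109566), a cellobiohydrolase that the fungus makes on cellulose, averaged 392758 ± 28966 normalised counts in MtWT on Avicel at 4 h, against 1318 ± 45.7 in MtWT on starch (SD, n = 3 each). Total counts per library were 17250057 to 24387079, which sets the counting error of the lowest members, and ΔMttrc-1/MtWT of the control gene tef-1 (Mycth_2298136, translation elongation factor) was 0.856 on starch, 0.927 at 4 h and 1.08 at 6 h on Avicel. For actin (Mycth_2314852) it was 0.829, 0.854 and 0.886, below 1 in each condition.

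Filamentous fungi feed on polymers by secreting hydrolases and taking up the sugars released, and transcription factors switch the matching genes on for each carbon source. Starch is an alpha-linked glucan that is opened by amylases, glucoamylases and alpha-glucosidases, whereas cellulose is a beta-linked glucan that needs cellulases. Zinc finger factors of the Cys2His2 type bind DNA and can raise or lower the transcription of many genes.

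Most members stood near the limits that chose them, and a few stood far from them. On starch ΔMttrc-1/MtWT had a median of 0.426 and ran from 0.114 to 0.4998, with 2 members below 0.25, 21 from 0.25 to 0.4 and 42 from 0.4 to 0.5, of which 29 were at 0.45 or more. Just inside the starch limit were Mycth_62866 (0.4998) and Mycth_2310255 (0.497), and just outside it Mycth_2294784 (0.501) and Mycth_2296320 (0.503). The floor on the MtWT level kept Mycth_2311076 (57.7 normalised counts) and Mycth_2300220 (67.4) and left out Mycth_90632 (47.1) and Mycth_2307506 (44.8). At 4 h on Avicel Mycth_102522 (ratio 0.603) and Mycth_2311076 (0.604) lay just above the lower bound and Mycth_80104 (0.593) and Mycth_2295307 (0.591) just below it. At its upper bound Mycth_2296092 (1.56) and Mycth_10713 (1.63) were kept, and Mycth_2307257 (1.78) and Mycth_2062291 (1.84) were not. At 6 h Mycth_109620 (0.656) and Mycth_91240 (0.673) lay above the lower bound, with Mycth_109542 (0.596) and Mycth_2307937 (0.583) below it. The upper bound at 6 h kept Mycth_2304184 (1.51) and Mycth_2140820 (1.62) and left out Mycth_71222 (1.74) and Mycth_2302969 (1.75). Of the 244 genes that met the starch conditions and were not left out by name, 179 failed an Avicel bound: 40 at 4 h alone, 66 at 6 h alone and 73 at both times. The mirror image of the rule, with ΔMttrc-1/MtWT above 2 on starch, a ΔMttrc-1 mean of at least 50 and the same Avicel bounds, held for 57 genes.

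**Figure D1:**
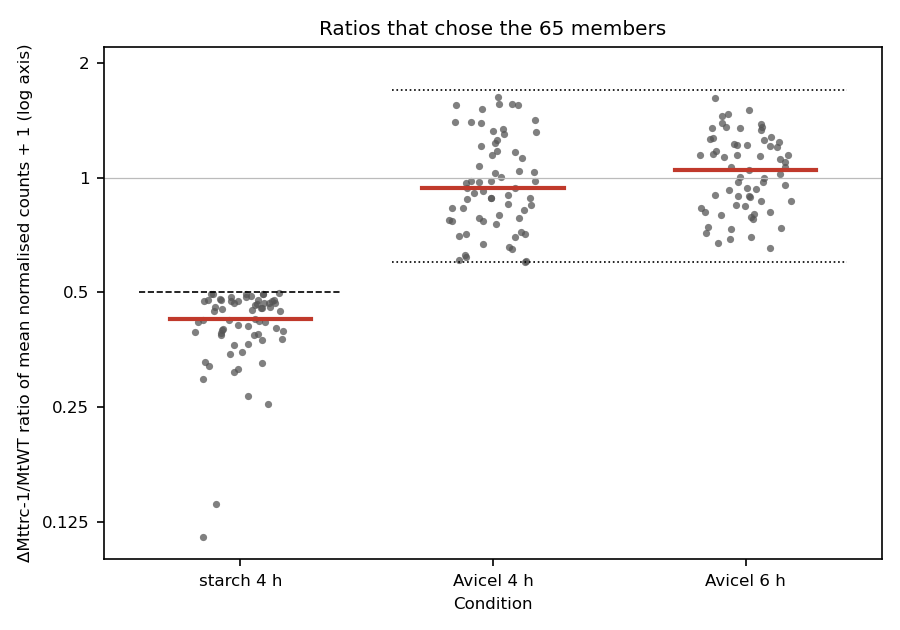
ΔMttrc-1/MtWT ratio of mean normalised counts plus 1, on a log axis, for the 65 members (points, spread sideways for legibility) on starch at 4 h, Avicel at 4 h and Avicel at 6 h. Red bars are medians, at 0.426, 0.938 and 1.05; the dashed line is the starch limit of 0.5 and the dotted lines are the Avicel bounds of 0.6 and 1.7, so the gap between starch and Avicel is set by the rule.

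In every member the 3 ΔMttrc-1 libraries on starch lay below the 3 MtWT libraries on starch, a separation also found in 35.6% of the 7603 genes at the same floor, and all 65 were past the thresholds of the count model (edgeR, adjusted p under 0.05 and log2 fold change beyond 1 in size), against 3.86% of the 8573 genes tested that were called lower and 4.12% called higher. Both counts follow from the rule, and nothing is read from them. All 65 members passed the filter on low counts. Together the members took 0.566% ± 0.0024% of all counts in ΔMttrc-1 on starch and 1.40% ± 0.047% in MtWT on starch (SD, n = 3 each). At 4 h on Avicel they took 0.671% ± 0.0011% in ΔMttrc-1 and 0.713% ± 0.025% in MtWT, and at 6 h 0.677% ± 0.0021% in ΔMttrc-1 and 0.537% ± 0.0088% in MtWT. As a share of all counts in a library, the members' part was thus highest in MtWT on starch and lowest in MtWT at 6 h on Avicel. Library totals do not put typical genes at equal levels across conditions. Scaled by them, the median gene stood at -0.60 (log2) in MtWT for Avicel at 4 h over starch. In ΔMttrc-1 it stood at 0.64 for 6 h over 4 h on Avicel. The order of the shares is therefore not an order of normalised levels between conditions. In bulk mycelium, fewer cells that express a gene and less of its RNA per cell cannot be told apart.

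**Figure D2:**
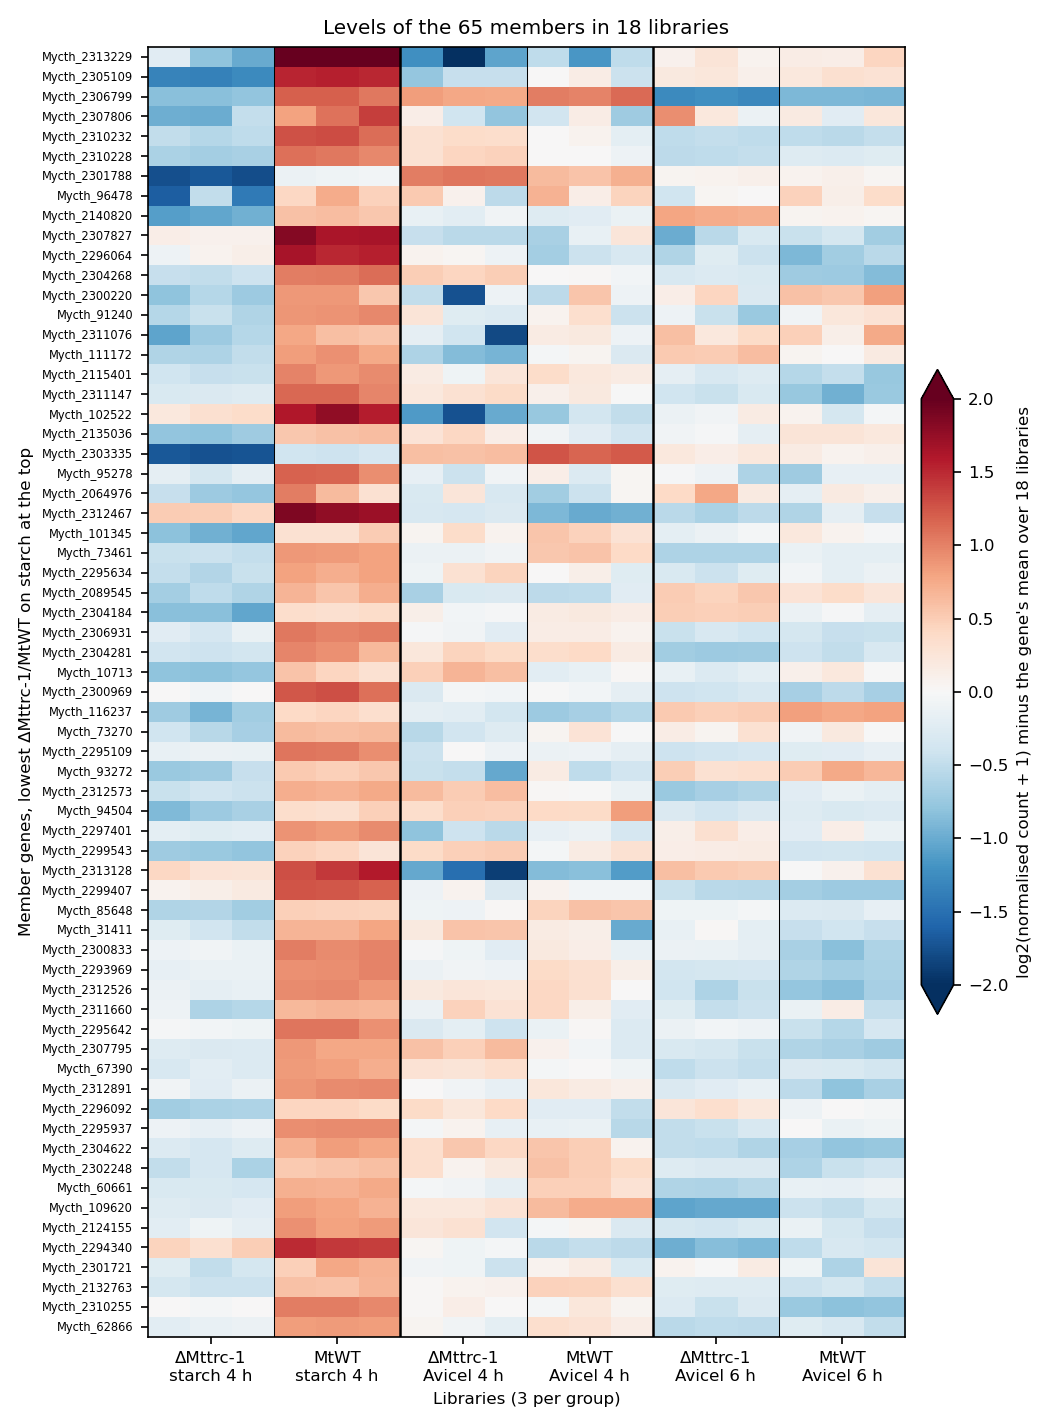
Levels of the 65 members (rows, lowest ΔMttrc-1/MtWT ratio on starch at the top) in the 18 libraries (columns, 3 per group), as log2 of the normalised count plus 1 minus the gene's mean over the libraries; colours are capped at 2 in either direction. The MtWT starch libraries form the band of highest levels, with 54 of 65 members having their highest group mean there, and a few rows such as Mycth_2303335 and Mycth_2301788 are higher at 4 h on Avicel.

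The strongest decreases on starch were in Mycth_2313229 and Mycth_2305109, which have no description in the tables used here. Mycth_2313229 had 62.9, 41.4 and 36.1 normalised counts in ΔMttrc-1 on starch, against 384, 468 and 399.8 in MtWT, a ratio of 0.114 and a log2 fold change of -3.15 ± 0.18 (SE). On Avicel it stayed low in both strains, at 31.0, 16.6 and 35.0 in ΔMttrc-1 and 51.5, 32.2 and 51.1 in MtWT at 4 h, and at 78.2, 87.9 and 77.2 in ΔMttrc-1 and 81.8, 80.3 and 99.9 in MtWT at 6 h, so of the 6 groups MtWT on starch alone was high. Mycth_2305109 had 80.9, 80.2 and 84.9 normalised counts in ΔMttrc-1 on starch, against 595, 605 and 586 in MtWT, a log2 fold change of -2.87 ± 0.12. Its ΔMttrc-1 starch libraries were also below every Avicel library of either strain, where the lowest value was 121.

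Other members among the 10 with the lowest ratio differed in how their starch level compared with Avicel. Mycth_2306799 had 2903, 2902 and 2979.8 normalised counts in ΔMttrc-1 on starch, against 11851, 11788 and 10731 in MtWT, a ratio of 0.256. Its Avicel levels at 4 h were close to the MtWT starch level in both strains, at 8930.2 ± 273 in ΔMttrc-1 and 10737 ± 581 in MtWT. Mycth_2301788 had 2019.8, 2109 and 2002 in ΔMttrc-1 on starch, against 6331, 6465 and 6637 in MtWT. Both starch groups of Mycth_2301788 were below all of its Avicel groups, of which the highest was ΔMttrc-1 at 4 h with 14184 ± 263 and the next MtWT at 4 h with 10737 ± 521. Mycth_2140820 had 2908, 3043 and 3195 in ΔMttrc-1 on starch, against 9377, 9573 and 9089 in MtWT. At 6 h on Avicel the order of the strains was the other way, with 10788, 10459 and 10278 in ΔMttrc-1 and 6481, 6566 and 6443 in MtWT, and the groups did not overlap. Mycth_2307827 had 143, 138 and 139 in ΔMttrc-1 on starch, against 468, 408 and 409 in MtWT, with all Avicel group means below those of both starch groups. Mycth_2307806 was a low and variable gene, with 24.5, 24.3 and 35.1 in ΔMttrc-1 on starch, against 87.1, 105 and 129 in MtWT, and its strains overlapped at both Avicel times.

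**Figure D3:**
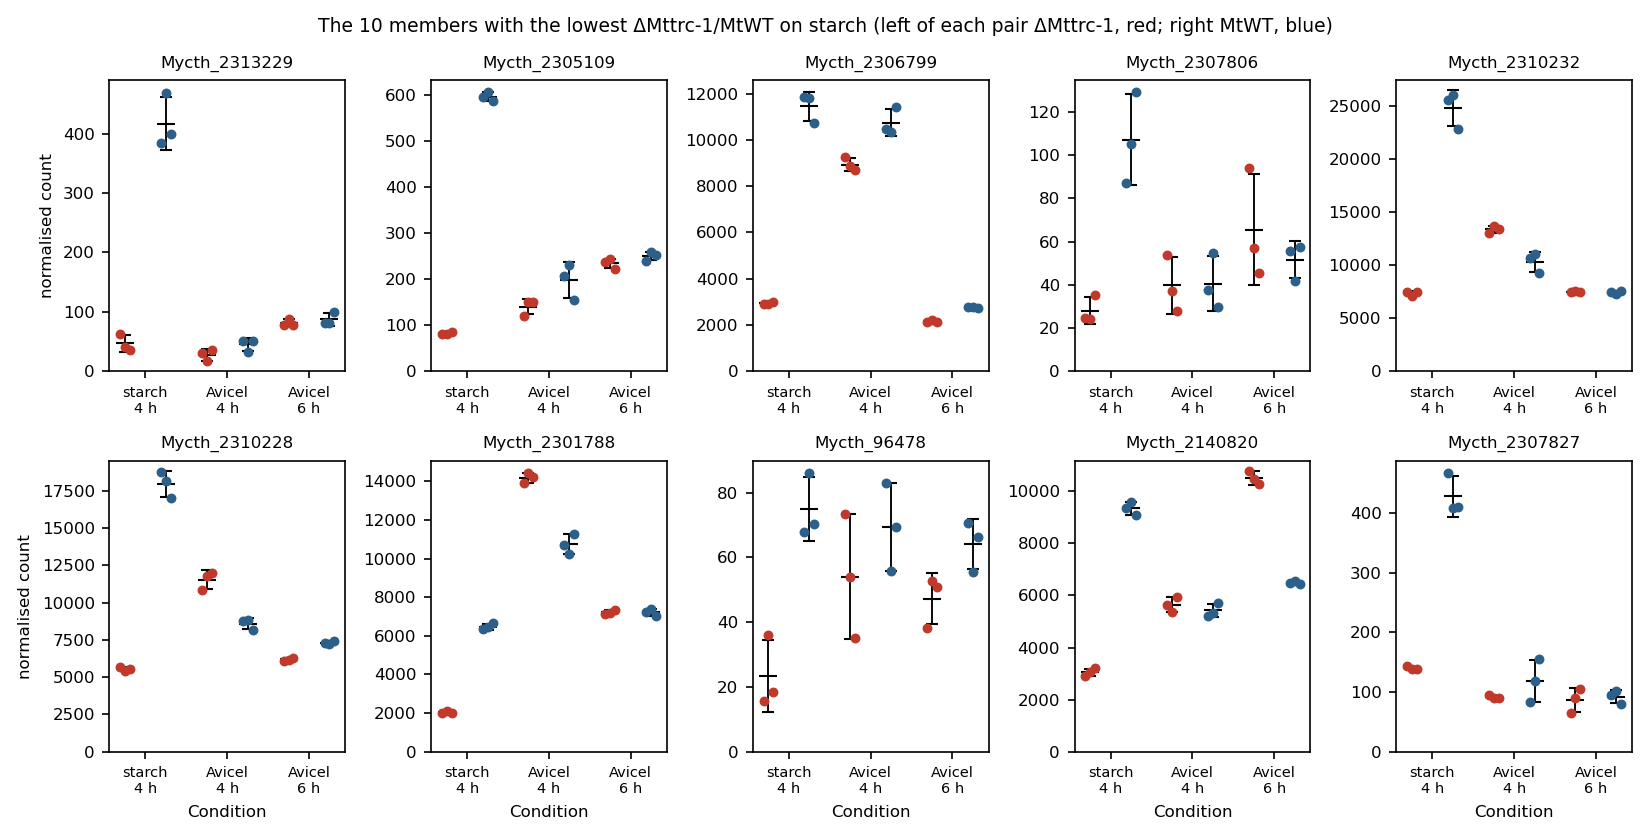
Normalised counts of the 10 members with the lowest ΔMttrc-1/MtWT ratio on starch in each library (points), with the mean and SD of 3 libraries (bars), by condition; in each pair ΔMttrc-1 is left in red and MtWT right in blue, and each panel has its own axis starting at 0. On starch the red points lie below the blue points in all 10 panels, and Mycth_2301788 is highest on Avicel at 4 h.

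Adjacent genes occurred among the members in 2 places, by gene order in the RefSeq assembly ASM22609v1. Mycth_2310228 and Mycth_2310232 lie next to each other and had similar ratios in each condition. Mycth_2310228 had 5669.7, 5442 and 5576 normalised counts in ΔMttrc-1 on starch, against 18757, 18178 and 17029.8 in MtWT. Mycth_2310232 had 7497, 7126 and 7449 in ΔMttrc-1 on starch, against 25526, 25992 and 22851 in MtWT. Their ratios were 0.309 and 0.297 on starch, 1.34 and 1.30 at 4 h on Avicel and 0.845 and 1.00 at 6 h, so both were higher in ΔMttrc-1 than in MtWT at 4 h. The genes on either side were not lower in ΔMttrc-1 on starch. Mycth_2310226, before the pair, had 537, 509.7 and 552 in ΔMttrc-1 on starch, against 199.8, 214 and 229 in MtWT, or 1.30 ± 0.086 on the log2 scale (SE; edgeR adjusted p 1.59e-12). On Avicel at 6 h Mycth_2310226 had 52.9, 72.8 and 58.1 in ΔMttrc-1, against 2330.4, 2068 and 2416 in MtWT, a log2 fold change of -5.19 ± 0.097 (edgeR adjusted p 3.47e-24). It was thus higher in ΔMttrc-1 on starch and lower on Avicel, where at 4 h the log2 fold change was -2.28 ± 0.079 (edgeR adjusted p 1.29e-18). Mycth_2310234, after the pair, did not pass the threshold on starch (log2 fold change -0.12 ± 0.11, edgeR adjusted p 0.371). On Avicel it was lower in ΔMttrc-1 at 4 h (-1.13 ± 0.13, edgeR adjusted p 2.87e-08) and not past the threshold at 6 h (-0.12 ± 0.12, 0.355).

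The other adjacent members, Mycth_96478 and Mycth_2312891, stood at very different levels. Mycth_96478 had 15.5, 36.0 and 18.5 normalised counts in ΔMttrc-1 on starch, against 68.0, 86.2 and 70.5 in MtWT. Its coefficient of variation in ΔMttrc-1 on starch, 47.4%, was the highest of the members there. Mycth_2312891 had 763, 689 and 737 in ΔMttrc-1 on starch, against 1473, 1551 and 1565 in MtWT, a ratio of 0.477 that lies close to the limit. At 6 h on Avicel the ratio was 0.743 for Mycth_96478 and 1.35 for Mycth_2312891. Mycth_2113877, before this pair, had a starch ratio of 0.446 and missed the set through its ratio of 1.94 at 6 h.

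Levels of different genes were compared per length, as RPKM (reads per kilobase of gene, scaled by the reads of the library) in MtWT on starch. Over the members the RPKM had a median of 31.3 and ran from 1.83 to 1351, beside a median of 29.9 over the 7603 genes at the floor. The gene length implied by counts and RPKM had a median of 2053 bases in the members and 1676 bases in the genes at the floor. The highest RPKM was that of Mycth_109620, described as a cytochrome b5, a haem protein that passes electrons to membrane-bound oxidases and desaturases. Its level was 650.1 ± 14.7 RPKM in ΔMttrc-1 on starch and 1351 ± 68.1 in MtWT. The next were Mycth_2312573 (185 ± 4.33 RPKM in ΔMttrc-1 and 414 ± 7.69 in MtWT) and Mycth_73461 (162 ± 2.83 in ΔMttrc-1 and 404 ± 8.71 in MtWT). Mycth_85648, Mycth_2140820, Mycth_2310232, Mycth_2301788 and Mycth_2299543 followed, the last with 185 RPKM in MtWT on starch.

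These high members had little spread between libraries on starch, where the rule had required the difference between the strains. Mycth_109620 had 23939.7, 23216 and 24369 normalised counts in ΔMttrc-1 on starch, against 50848, 49319 and 46141 in MtWT. Mycth_73461 had 10319, 10423 and 10104 in ΔMttrc-1 and 25602, 25417 and 24689 in MtWT. Mycth_2312573 had 4084, 4259 and 4132 in ΔMttrc-1 and 9170.4, 8937 and 9367 in MtWT. On Avicel Mycth_109620 and Mycth_73461 were lower in ΔMttrc-1 at both times, with ratios of 0.721 and 0.656 for Mycth_109620 and of 0.658 and 0.738 for Mycth_73461 at 4 h and 6 h. Mycth_2312573 had ratios on both sides of 1, at 1.55 and 0.716. Mycth_85648 had 4498, 4587 and 4229 in ΔMttrc-1 on starch, against 9581, 9456 and 9351 in MtWT. Mycth_2299543 had 5699, 5566 and 5417 in ΔMttrc-1 on starch, against 12861, 12387 and 11119.7 in MtWT. At 6 h on Avicel Mycth_2299543 stood higher in ΔMttrc-1, with 10230.4, 10359 and 10434, against 7144, 7229.7 and 7069 in MtWT.

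Only 9 of the 65 members had a description in the tables used here, which cover 1666 genes, and 2 of these read hypothetical protein (Mycth_111172 and Mycth_101345). Carbohydrate enzymes were represented by Mycth_102522, described as an exo-beta-1,3-glucanase, an enzyme type that releases glucose from the ends of beta-1,3-glucan such as that of the fungal wall, and by Mycth_10713, a glycosyltransferase of family 2, whose members build polysaccharides from activated sugars. Mycth_102522 had 189, 204 and 212 normalised counts in ΔMttrc-1 on starch, against 502, 566 and 489 in MtWT. Mycth_10713 had 236, 234 and 242 in ΔMttrc-1 on starch, against 615, 558 and 511 in MtWT. Both were separated on starch, and at 4 h on Avicel they stood near opposite bounds, Mycth_102522 at a ratio of 0.603 and Mycth_10713 at 1.63. Mycth_2064976, of the PfkB family of carbohydrate and purine kinases, was among the lowest members, with 31.9, 26.1 and 25.4 in ΔMttrc-1 on starch, against 90.4, 69.0 and 54.6 in MtWT.

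Oxidoreductases among the described members were the aldo/keto reductase Mycth_116237, a type that reduces aldehydes and ketones with NADPH, and the short-chain dehydrogenase/reductase Mycth_2089545, of a family that oxidises or reduces small alcohols and ketones. Mycth_116237 had 292, 251 and 296 normalised counts in ΔMttrc-1 on starch, against 630.2, 647 and 606 in MtWT. Mycth_2089545 had 457, 515 and 484 in ΔMttrc-1 on starch, against 1178, 1081 and 1219.5 in MtWT. Their starch ratios, 0.446 and 0.419, were close to the median of the members. Mycth_2115401, with an OB fold, a protein shape that binds nucleic acids, had 248, 237 and 240.03 in ΔMttrc-1 and 651, 597 and 633 in MtWT. The hypothetical proteins Mycth_111172 and Mycth_101345 had means of 509 ± 25.7 and 175 ± 13.5 in ΔMttrc-1 and of 1347 ± 72.0 and 436 ± 36.1 in MtWT (SD, n = 3 each).

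On Avicel the members scattered on both sides of equality. At 4 h ΔMttrc-1/MtWT had a median of 0.938, with 39 members below 1 and 26 above, and at 6 h a median of 1.05, with 29 below and 36 above, beside medians of 1.00 and 1.02 over the genes at the floor. Between the times, 16 members were below 1 at both, 13 above at both, 23 below at 4 h and above at 6 h, and 13 the other way. Only 16 lay between 0.8 and 1.25 at both times, so similar levels in the strains on Avicel held within the bounds of the rule and not more closely. All ΔMttrc-1 libraries lay below all MtWT libraries in 19 members at 4 h (31.9% of genes at the floor) and in 21 at 6 h (39.7%), and above them in 17 (32.3%) and 25 (42.3%). No member was past the edgeR thresholds on Avicel in either direction, where 7.42% of genes were called lower and 5.83% higher at 4 h, and 12.9% lower and 8.55% higher at 6 h. At the same thresholds DESeq2 called 0 members, and limma on RPKM called 1, higher at 6 h. At an unadjusted p under 0.05, edgeR alone counted 25 members lower (35.1% of genes) and 19 higher (31.9%) at 4 h, and 15 lower (37.5%) and 25 higher (38.2%) at 6 h. These counts are largely fixed by the bounds.

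The starch level of MtWT was itself above its Avicel level in most members, which the rule did not ask for. MtWT at 4 h on Avicel had a lower mean than MtWT on starch in 60 of 65 members (92.3%), beside 51.4% of the genes at the floor and 65.4% of the 179 genes that met the starch conditions but failed an Avicel bound. The median ratio of MtWT on Avicel at 4 h over MtWT on starch was 0.569 in the members, 0.604 in those 179 genes and 0.984 in the genes at the floor, and at 6 h it was 0.462, 0.566 and 0.975. A median well below 1 was thus also found in the other genes that were low in ΔMttrc-1 on starch. In the edgeR fit 23 members (35.4%) were past the thresholds as lower on Avicel at 4 h, where 9.8% of genes were, and 1 member as higher, where 9.95% were. At 6 h the counts were 39 lower (60% of members, 10.5% of genes) and 0 higher (13% of genes), with 3 higher at an unadjusted p under 0.05 in edgeR (38.5% of genes) and 0 called by DESeq2 or limma. The libraries did not overlap, with MtWT lower on Avicel, in 54 members at 4 h (37.8% of genes at the floor) and in 58 at 6 h (42.1%). They did not overlap in the opposite direction in 2 members at 4 h (36.7%) and in 3 at 6 h (39.2%). The MtWT starch libraries also chose the members, so these counts are no test of the members and nothing is read from their distance to the shares of all genes, and at 6 h the time differs as well as the carbon source. With library totals in place of TMM scaling, 50 members passed as lower at 4 h (28.2% of genes), while the median over all genes moved to -0.60 on the log2 scale.

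In ΔMttrc-1 a higher level on starch was less common than in MtWT. Its Avicel mean was below its starch mean in 21.5% of members at 4 h and 43.1% at 6 h, beside 92.3% and 93.8% in MtWT. For ΔMttrc-1 these shares were 27.9% and 19.6% in the 179 other genes low on starch. Over the genes at the floor they were 50.6% and 51.0%. The median ratio of ΔMttrc-1 on Avicel at 4 h over ΔMttrc-1 on starch was 1.39 in the members, and at 6 h it was 1.11, beside 0.569 and 0.462 for MtWT. In the 179 other genes low on starch the same ΔMttrc-1 ratio was higher, at 1.60 and 1.90, and over the genes at the floor it was 0.993 at both times. Most members were lower in ΔMttrc-1 on starch than in MtWT on Avicel: the median ratio of ΔMttrc-1 on starch over MtWT at 4 h on Avicel was 0.745, 53 of 65 members were below 1, and 54 lay between 0.5 and 2. All ΔMttrc-1 starch libraries lay below all MtWT Avicel libraries at 4 h in 39 members (38.1% of genes at the floor), and above them in 5 (37.7%). The highest group mean was that of MtWT on starch in 54 members, beside 16.9% of the genes at the floor. The lowest was that of ΔMttrc-1 on starch in 28 members, of MtWT at 6 h on Avicel in 18 and of ΔMttrc-1 at 6 h in 13. For the lowest group no share over the genes at the floor is at hand, and nothing is read from these counts. As the rule requires ΔMttrc-1 on starch to be low and keeps the strains near each other on Avicel, these ratios are bound to each other and carry no test.

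**Figure D4:**
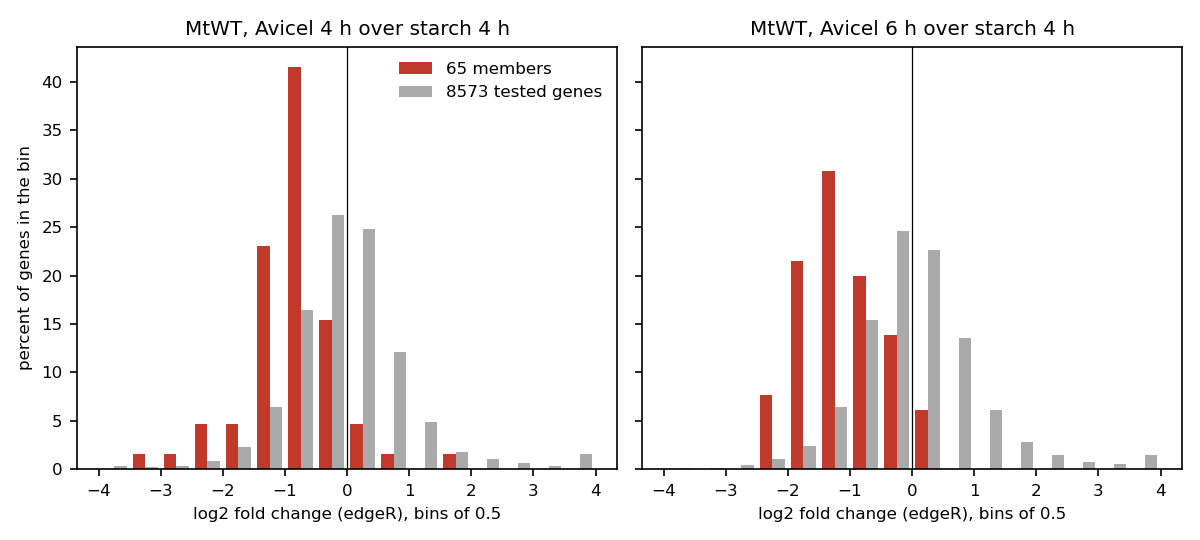
Share of genes (percent) by edgeR log2 fold change of MtWT on Avicel over MtWT on starch, in bins of 0.5, at 4 h (left) and 6 h (right), for the 65 members (red) and all 8573 tested genes (grey); values beyond 4 in size are counted in the end bins. The members peak between -1 and -0.5 at 4 h and between -1.5 and -1 at 6 h, and all tested genes peak around 0.

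The members most shifted between the carbon sources in MtWT ran in both directions. Mycth_2313229, with a log2 fold change of -3.23 ± 0.19 (SE), had 51.5, 32.2 and 51.1 normalised counts in MtWT on Avicel at 4 h, against 384, 468 and 399.8 in MtWT on starch. Mycth_2312467 had 227, 212 and 218 on Avicel at 4 h, against 1558, 1454 and 1392 on starch in MtWT (-2.77 ± 0.090). Mycth_2313128 (-2.42 ± 0.15) and the exo-beta-1,3-glucanase gene Mycth_102522 (-2.22 ± 0.14) were also lower on Avicel, and none of these 4 genes overlapped between the carbon sources. In the opposite direction, Mycth_2303335 had 8612, 8133 and 8483 in MtWT on Avicel at 4 h, against 2753, 2698 and 2873 in MtWT on starch, with a log2 fold change of 1.57 ± 0.044. Smaller positive differences were those of Mycth_2301788 (0.70 ± 0.043), Mycth_94504 (0.14 ± 0.090) and Mycth_101345 (0.03 ± 0.10). Mycth_2303335 was the only member past the threshold as higher on Avicel, and in ΔMttrc-1 it had 5508, 5399 and 5531 on Avicel at 4 h and 1112, 1074 and 1092 on starch, so that it was lowest in ΔMttrc-1 on starch all the same.

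The change between 4 h and 6 h on Avicel was not used by the rule and was tested in each strain. In ΔMttrc-1 4 members (6.15%) fell, beside 9.55% of all genes, and 6 members (9.23%) rose, beside 9.44%. Since the rule bounds the ratio of the strains at both times, the change in ΔMttrc-1 is tied to that in MtWT, but only loosely. For Mycth_111172, for example, the log2 fold change was 1.38 in ΔMttrc-1 and 0.16 in MtWT. Mycth_2306799 fell most, with 2136, 2215 and 2116 normalised counts in ΔMttrc-1 at 6 h, against 9235, 8846 and 8709 at 4 h, or -2.02 ± 0.049 on the log2 scale (SE; edgeR adjusted p 5.40e-22). The other falls were those of Mycth_109620 (-1.24 ± 0.047, edgeR adjusted p 6.33e-18), Mycth_2312573 (-1.22 ± 0.050, 2.48e-17) and Mycth_2304281 (-1.03 ± 0.079, 1.24e-11). Mycth_2313128 rose most, with 201, 190.2 and 186 at 6 h, against 64.3, 45.5 and 35.0 at 4 h (2.00 ± 0.17, edgeR adjusted p 6.26e-11). Mycth_2313229 had 78.2, 87.9 and 77.2 at 6 h, against 31.0, 16.6 and 35.0 at 4 h (1.58 ± 0.24, edgeR adjusted p 2.77e-06). It rose there without reaching its MtWT level on starch. Mycth_111172 (1.38 ± 0.089, edgeR adjusted p 3.55e-13), Mycth_102522 (1.29 ± 0.16, 1.36e-07), Mycth_2311076 (1.07 ± 0.29, 0.00211) and Mycth_93272 (1.03 ± 0.18, 1.87e-05) rose as well. The calls of Mycth_2311076 and Mycth_93272 were lost without ΔMttrc-1 Avicel 4 h replicate 3 (log2 fold changes 0.72 and 0.87) or Avicel 6 h replicate 1 (0.96 and 0.98), and that of Mycth_2304281 without Avicel 4 h replicate 2 (-0.98). Scaling moved this comparison more: with library totals the median over all genes became 0.64 on the log2 scale and 16 members rose (28.8% of genes) while 1 fell (4.25%), and in MtWT the median became 0.28 and 4 members rose (14.4% of genes) while 1 fell (2.62%).

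In MtWT 5 members (7.69%) fell between 4 h and 6 h, beside 5.67% of all genes, and 2 members (3.08%) rose, beside 8.4%. Mycth_2306799 again fell most: it had 2777, 2789 and 2743 normalised counts in MtWT at 6 h, against 10459.7, 10346 and 11404 at 4 h, or -1.95 ± 0.049 on the log2 scale (SE; edgeR adjusted p 3.07e-21). The cytochrome b5 gene Mycth_109620 had 21204, 20257 and 22308 in MtWT at 6 h, against 44425, 47507 and 47654 at 4 h, a log2 fold change of -1.13 ± 0.047 (edgeR adjusted p 1.14e-16). In both genes the 3 libraries of each time stood apart. Mycth_2303335 (-1.11 ± 0.044, edgeR adjusted p 3.95e-17), Mycth_2304622 (-1.12 ± 0.090, 5.53e-11) and Mycth_2312526 (-1.02 ± 0.084, 7.38e-11) fell as well. Those that rose were the aldo/keto reductase gene Mycth_116237, with 848, 816 and 839 at 6 h, against 288, 300.04 and 321 at 4 h (1.46 ± 0.081, edgeR adjusted p 3.70e-14), and Mycth_2313128 (1.08 ± 0.17, edgeR adjusted p 2.86e-06). The rise of Mycth_2313128 was below the fold threshold without MtWT Avicel 4 h replicate 3 (log2 fold change 0.99) or without Avicel 6 h replicate 3 (0.99), and the fall of Mycth_2312526 was so without Avicel 4 h replicate 1 (-0.93) or replicate 2 (-0.99) or Avicel 6 h replicate 2 (-0.97). The number that rose was 4 without Avicel 4 h replicate 1, as Mycth_2313229 and Mycth_93272 then passed, and 1 without Avicel 6 h replicate 3.

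**Figure D5:**
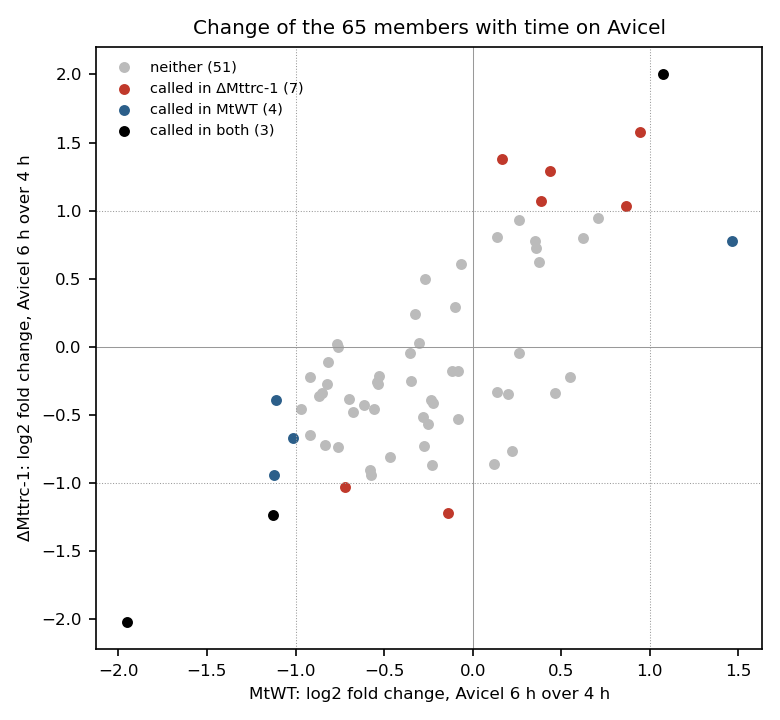
edgeR log2 fold change between 4 h and 6 h on Avicel (6 h over 4 h) of the 65 members (points), in ΔMttrc-1 on the vertical axis and in MtWT on the horizontal axis; dotted lines mark the threshold of 1 in size. Of the points, 7 passed the thresholds in ΔMttrc-1 alone (red), 4 in MtWT alone (blue) and 3 in both (black: Mycth_2306799, Mycth_109620 and Mycth_2313128), which does not show that the strains differ at the others.

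The change with time was not tested between the strains. The counts past the thresholds in each strain therefore say nothing of a difference, and 51 of 65 members passed in neither strain.

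Genes that work in starch and sugar use were read from lists by description. Of 14 sugar transporter genes, which carry sugars across the membrane, none was a member, 1 rose in ΔMttrc-1 on starch (4.12% of genes) and 0 fell (3.86%) in edgeR, and DESeq2 and limma called the same numbers. The 56 members with no description at hand could not be on this list. It therefore does not show that the set lacks sugar transporters. At an unadjusted p under 0.05, edgeR counted 6 transporters higher (29.8% of genes) and 3 lower (31.3%). The gene that rose was Mycth_108044, with 433, 473 and 421 normalised counts in ΔMttrc-1, against 189, 198 and 175 in MtWT (log2 fold change 1.23, edgeR adjusted p 1.11e-07). The median log2 fold change of the transporters was 0.05, beside -0.01 over all genes. Of 5 genes for alpha-glucan enzymes, glaA (Mycth_72393, glucoamylase, which frees glucose from starch) and the alpha-glucosidase gene Mycth_2303089 fell. Their log2 fold changes were -1.53 and -2.51. Both genes had been selected by the study from the same libraries, so their direction is no independent evidence, and both are outside the set by name. Their ratios at 6 h on Avicel, 0.397 and 2.46, would also have put them outside. The other alpha-glucan genes did not pass the thresholds, at log2 fold changes of -0.61 for Mycth_108416, -0.20 for Mycth_104674 and 0.26 for the alpha-glucosidase gene Mycth_2087807. Mycth_108416 and Mycth_2087807 missed only the fold threshold (edgeR adjusted p 1.89e-07 and 0.00353), while Mycth_104674 missed both (0.359). Mycth_108416 is described as bifunctional, of glycoside hydrolase family 13 and glycosyltransferase family 5, so it need not be a starch-degrading enzyme.

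Spread between libraries was small against the starch difference in most members. The rule required that difference in these same libraries, so this is a description and no evidence for it. The median coefficient of variation over members was 3.43% in ΔMttrc-1 and 4.17% in MtWT on starch, 7.25% in ΔMttrc-1 and 9.53% in MtWT at 4 h on Avicel, and 4.39% in ΔMttrc-1 and 5.75% in MtWT at 6 h. The widest spread was that of Mycth_2300220, a gene of low level, which reached 51.5% in ΔMttrc-1 and 39.7% in MtWT at 4 h on Avicel. Over all members the MtWT starch means ran from 57.7 to 48769.5 normalised counts, with a median of 1262.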

How the data were processed

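RNA-seq libraries of ΔMttrc-1 and MtWT were grouped by the strain, carbon source and time in their titles, 3 per group, which the study's methods call independent biological replicates. The description of each MtWT library titled replicate 3 repeats the name of replicate 2, so the titles were used, and that MtWT has 3 separate samples per group rests on the titles and on values that differ by more than sampling noise. Per the submitters' processing notes, TopHat2 2.0.8b aligned the reads and HTSeq 0.5.4p2 counted them, and the authors deposited these raw counts; the study's methods name other versions. Build and strand setting were not given in the sources used here; overlapping and antisense genes may therefore share reads. The authors also deposited RPKM, the counts scaled by gene length and library. All 36 value columns matched a sample.

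Median-of-ratios normalised counts (over 8417 genes above 0 in all 18 libraries) gave the levels and chose the members. Raw counts of all 6 groups were fitted together in R 4.3.3 with edgeR 4.0.16 (TMM scaling, filterByExpr, robust quasi-likelihood, no replicate term). The filter kept 8573 genes and dropped 536, with 0.00403% of counts. A call required a Benjamini-Hochberg adjusted p under 0.05 over all tested genes and an absolute log2 fold change over 1. Standard errors are the fold change over the square root of F and are approximate. Alternatives were library totals, DESeq2 1.42.0 (size factors, Wald test), no filter, a replicate block, a test against a 2-fold change, limma 3.58.1 on log2(RPKM + 1), other floors and scalings of the rule, and leaving out each library.

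The members and lists were chosen with earlier results of these data known. Genes named are the 10 with the lowest starch ratio, the 8 with the highest RPKM, described members, up to 4 called in each direction with time on Avicel, those at the limits of the rule, adjacent members, and the 4 most shifted in each direction between carbon sources in MtWT. Mycth_2303335, Mycth_2312526, Mycth_2311076 and Mycth_93272 are also named because they complete a count. A search of promoters for motifs was planned and is not analysed here. Neighbours come from the RefSeq assembly ASM22609v1, where all 65 members were found.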

Additional observations from a re-analysis of the deposited data

How the results depend on the processing

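The rule gave 66 members with TMM scaling (63 shared with the 65 described), 70 with library totals (54 shared), 61 with a floor of 100, and 60 to 71 when 1 library was left out (59 to 65 shared). Of the 65, a test against a 2-fold change called 29 lower on starch, limma on RPKM called 56, and leaving out 1 library gave 62 to 64. For ΔMttrc-1 at 6 h against 4 h, 16 rose with library totals, 3 against a 2-fold change, 12 with limma on RPKM and 4 to 7 without 1 library, and 1 fell with library totals, 1 with limma on RPKM and 3 to 4 without 1 library. For MtWT at 6 h against 4 h, the number that rose was 4 with library totals, 1 against a 2-fold change and 1 to 4 without 1 library, with 4 without Avicel 4 h replicate 1 and 1 without Avicel 6 h replicate 3; the number that fell was 1 with library totals, 3 against a 2-fold change, 1 with limma on RPKM and 4 to 6 without 1 library. For MtWT on Avicel at 4 h against starch, 50 were lower with library totals, 14 against a 2-fold change, 45 with limma on RPKM and 21 to 28 without 1 library; at 6 h leaving out 1 library gave 37 to 39. Library totals shift the median over all genes on the log2 scale in these comparisons (to 0.64 and 0.28 with time in ΔMttrc-1 and MtWT and to -0.60 and -0.29 for Avicel over starch at 4 h and 6 h), and RPKM shares that scaling; for the other changes the cause was not tested. With limma on RPKM the median over all genes was 0.55 with time in ΔMttrc-1 and -0.52 for MtWT on Avicel at 4 h over starch. Apart from library totals, the counts above stand without the share over all genes under the same alternative. They show only how far the calls depend on the alternative, and nothing else is read from them. No value changed sign past the threshold. Over 36 named members, 1872 such repeats left the status, called or not called, as it was in 1775. A call was lost in 51 and gained in 46. The 1775 include repeats of members that were not called in the first place. They also include the starch comparison of the strains, which chose the members, so their number is no measure of how stable the calls are.

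Replicate numbers showed no clear pairing of the samples. Of 21 correlations of deviations between same-numbered libraries, from -0.32 to 0.15, 1 was above 0.1. In 8 of these 21 comparisons the same number was the best match. They included all those of ΔMttrc-1 with MtWT at 4 h on Avicel (0.147, 0.039 and 0.1). With the replicate block the counts were 65 lower on starch, 4 lower and 6 higher with time in ΔMttrc-1, 5 lower and 2 higher with time in MtWT, and the block changed no call of a named member. The members with the widest spread in each group had MtWT starch means of 67.4 to 190.3 normalised counts, where counts are few.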
